A study of Mus musculus with 2 samples.

Results

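The mouse genes described here encode 10 proteins of bone matrix and vascular calcification: Spp1, Ibsp, Mgp, Runx2, Alpl, Dmp1, Mepe, Enpp1, Bglap and Tnfrsf11b. They were chosen by name, and all 10 were found among the 32285 genes of the deposited matrices. Single-cell RNA-seq was made from 2 libraries of aortic cells, 1 per group, both from ApoE-/- mice on a C57BL/6 background that were fed a Western diet to produce atherosclerosis. The group called WT carried no other named allele, so it is wild type only for the CD45 gene, and the group called EC-iCD45KO also carried a tamoxifen-inducible, endothelial-specific deletion of CD45. Neither the promoter that drives the deletion, nor the age and number of mice behind a library, nor whether WT mice received tamoxifen is given in the sources used here. Enzymes freed the cells from the aorta, and anti-CD31 beads, which enrich endothelial cells (EC), were applied to the suspension, so shares of cell types are shares of what that step let through. The study asked how endothelial CD45 acts on the transition of endothelium to mesenchyme and on lesions; nothing in the labels names calcification.

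Mineral forms where phosphate and calcium meet a permissive matrix, and arteries normally hold this in check. Matrix Gla protein (Mgp), made by smooth muscle, is a calcification inhibitor that needs vitamin K-dependent carboxylation. Enpp1 makes pyrophosphate, which blocks crystal growth, and tissue-nonspecific alkaline phosphatase (Alpl) breaks pyrophosphate down. Osteoprotegerin (Tnfrsf11b) is a decoy receptor for RANKL. Osteopontin (Spp1), bone sialoprotein (Ibsp), Dmp1 and Mepe are acidic phosphoproteins of the SIBLING family, and osteocalcin (Bglap) is a Gla protein of osteoblasts. Runx2 is the transcription factor that directs osteoblast and hypertrophic chondrocyte programmes. In atherosclerotic plaques, smooth muscle cells (SMC) can lose contractile genes and take on fibroblast-like or chondrocyte-like states, and foamy macrophages make osteopontin.

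The matrices held 39849 WT and 30278 EC-iCD45KO barcodes, with 92058043 and 88967918 unique molecular identifiers (UMIs, each marking a captured RNA molecule) and medians of 1548 and 1405 UMIs per barcode. After filtering, 35553 and 26064 cells remained, and 257 of the kept barcodes occurred in both libraries. Clusters were named from marker genes outside the 10, giving 15 classes with at least 50 cells in each library, while 18.1% of WT and 6.11% of EC-iCD45KO cells stayed unnamed. The libraries differed in makeup: B-like and T/NK-like cells numbered 5804 and 3852 in WT against 338 and 424 in EC-iCD45KO, and macrophage-like cells numbered 3370 against 9460. In EC-like cells Ptprc, the gene of CD45, stood at 300.04 CPM in WT (UMIs of the gene per 1000000 UMIs of the class) and 116 CPM in EC-iCD45KO. The lower level was not limited to them. Ptprc was 268 and 106 CPM in contractile SMC-like, 383 and 138 CPM in fibroblast-like and 498 and 285 CPM in macrophage-like cells. T/NK-like cells had 1122 and 906 CPM, whereas B-like cells had 751 and 1260.4 CPM. Defining markers were detected in their classes: Cdh5 stood at 357 and 531 CPM in EC-like cells, Acta2 at 10737 and 13828 CPM in contractile SMC-like cells, Lum at 5758 and 6906 CPM in modulated SMC-like cells, and Col2a1 at 2695 and 956 CPM in chondrocyte-like cells. The chondrocyte-like label held less well in EC-iCD45KO, where its 29 fibroblast markers summed to 18725 CPM and its 24 chondrocyte markers to 8003 CPM, against 11387 and 15490 CPM in WT. With 1 library per group there was no test between groups. Each interval below is an exact 95% interval for counting error only; variation between animals is not in it.

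Dmp1, Ibsp, Mepe and Spp1 lie next to one another in that order on the plus strand of chromosome 5 (GRCm38, GENCODE M21): Dmp1 at chr5:104202613-104214102, Ibsp at chr5:104299171-104311469, Mepe at chr5:104325329-104338611 and Spp1 at chr5:104435118-104441050. The other genes are scattered: Mgp at chr6:136872435-136875823, Alpl at chr4:137741733-137796384, Enpp1 at chr10:24637914-24712159, Tnfrsf11b at chr15:54250619-54278484 and Runx2 at chr17:44495987-44814797, all on the minus strand. Runx2 overlaps Supt3 and 3 antisense genes, so its counts are uncertain if strand was not used. Bglap at chr3:88383501-88384464 lies beside the closely similar Bglap2 and Bglap3, and the split of reads between these copies is uncertain. The promoter table used here, from RefSeq on GRCm38.p6, held 8 of the 10 genes, with 11 starts. The core RUNX motif, TGTGGT or its reverse complement ACCACA, occurred in the 250 bases before 6 of these 11 starts and in 14.05% (4614 of 32851) of all windows of that length. The windows of Ibsp and of both Alpl starts, and 1 window each of Dmp1 and Spp1, held no match. Windows with a match are shown for 3 genes that were highest in chondrocyte-like cells, Bglap, Mepe and Spp1, 5′ to 3′ on the gene's strand, with the RUNX match in capitals. The windows are chr3:88384467-88384716 (minus strand) for Bglap, chr5:104325079-104325328 (plus strand) for Mepe and chr5:104434861-104435110 (plus strand) for Spp1.
Bglap: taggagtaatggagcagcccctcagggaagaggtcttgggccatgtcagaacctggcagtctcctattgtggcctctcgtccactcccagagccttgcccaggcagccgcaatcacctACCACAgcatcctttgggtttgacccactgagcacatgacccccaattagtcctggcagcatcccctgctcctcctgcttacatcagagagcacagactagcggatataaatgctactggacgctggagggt
Mepe: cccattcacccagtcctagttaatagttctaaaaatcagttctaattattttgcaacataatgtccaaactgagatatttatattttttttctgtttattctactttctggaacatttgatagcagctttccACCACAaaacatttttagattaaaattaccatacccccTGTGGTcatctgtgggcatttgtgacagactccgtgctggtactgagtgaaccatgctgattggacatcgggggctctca
Spp1: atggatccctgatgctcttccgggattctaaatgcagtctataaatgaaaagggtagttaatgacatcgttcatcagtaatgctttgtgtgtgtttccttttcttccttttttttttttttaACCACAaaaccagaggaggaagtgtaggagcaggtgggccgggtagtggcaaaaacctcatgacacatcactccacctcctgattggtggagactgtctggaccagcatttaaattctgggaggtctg
The match lies 132 bases before the start in Bglap, 128 in Spp1, and 118 and 80 in Mepe. It is a match of letters, not a measured binding site.

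Across the 15 classes, levels of these genes followed cell type (heat map of levels by class). Chondrocyte-like cells had the highest CPM of Spp1, Ibsp, Tnfrsf11b, Alpl, Enpp1, Mepe and Bglap in both libraries. Modulated SMC-like cells had the highest Mgp in both. Between the libraries, Ibsp was lower in EC-iCD45KO in all 6 structural and macrophage classes, and 2-fold or more lower in 5 of them, while Mgp and Spp1 differed by less than 2-fold in all 6.

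**Figure D1:**
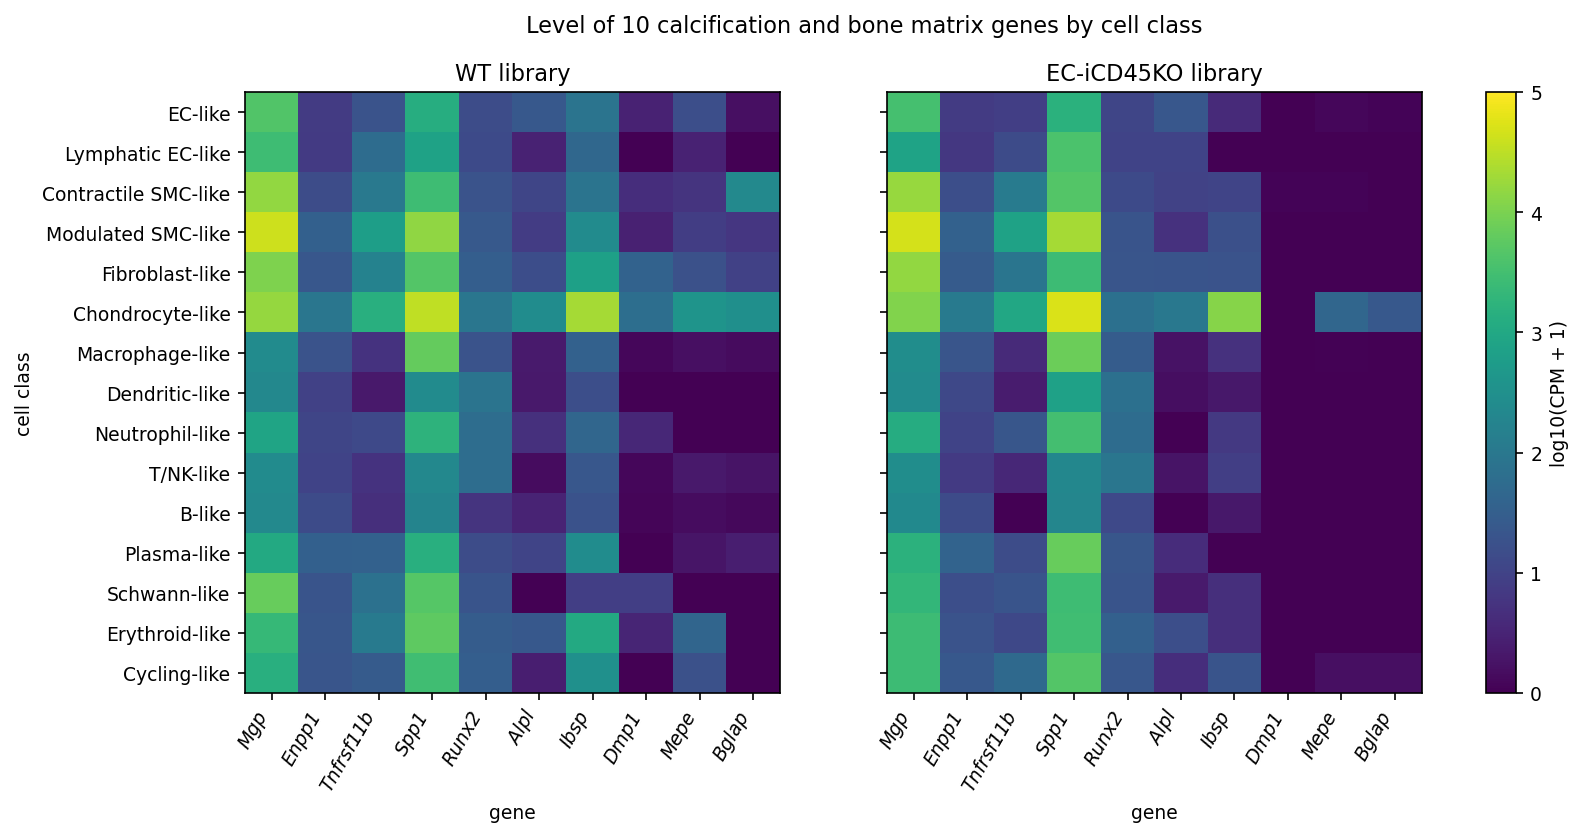
Level of each gene as log10(CPM + 1), by cell class and library. Mgp and Spp1 are spread over stromal classes, whereas Ibsp, Mepe and Bglap have their highest level in chondrocyte-like cells of both libraries; Dmp1 has none there in EC-iCD45KO.

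Counts of genes past 2-fold, with a mean of at least 10 CPM in the class, were as follows. In EC-like cells, 2 of the 6 members that reached this level were lower in EC-iCD45KO (Ibsp and Tnfrsf11b), against 3.02% lower and 1.19% higher of all 9180 genes measured there. In contractile SMC-like cells 2 of 7 were lower (Ibsp and Bglap), against 3.69% lower and 0.928% higher of all genes. In modulated SMC-like cells 1 of 6 was lower (Ibsp), against 1.95% and 1.21%. In fibroblast-like cells 2 of 8 were lower (Ibsp and Dmp1), against 5.03% and 2.19%. In chondrocyte-like cells 4 of 10 were lower (Alpl, Dmp1, Mepe and Bglap), against 4.75% and 5.87%. In macrophage-like cells 1 of 5 was lower (Ibsp), against 1.31% and 0.561%. No member was 2-fold higher in any of these 6 classes. A member under 10 CPM in EC-iCD45KO entered these counts through its WT level, so its call gives no support of its own. That holds for Ibsp in EC-like, contractile SMC-like and macrophage-like cells, Tnfrsf11b in EC-like cells, Bglap in contractile SMC-like cells and Dmp1 in both classes.

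**Figure D2:**
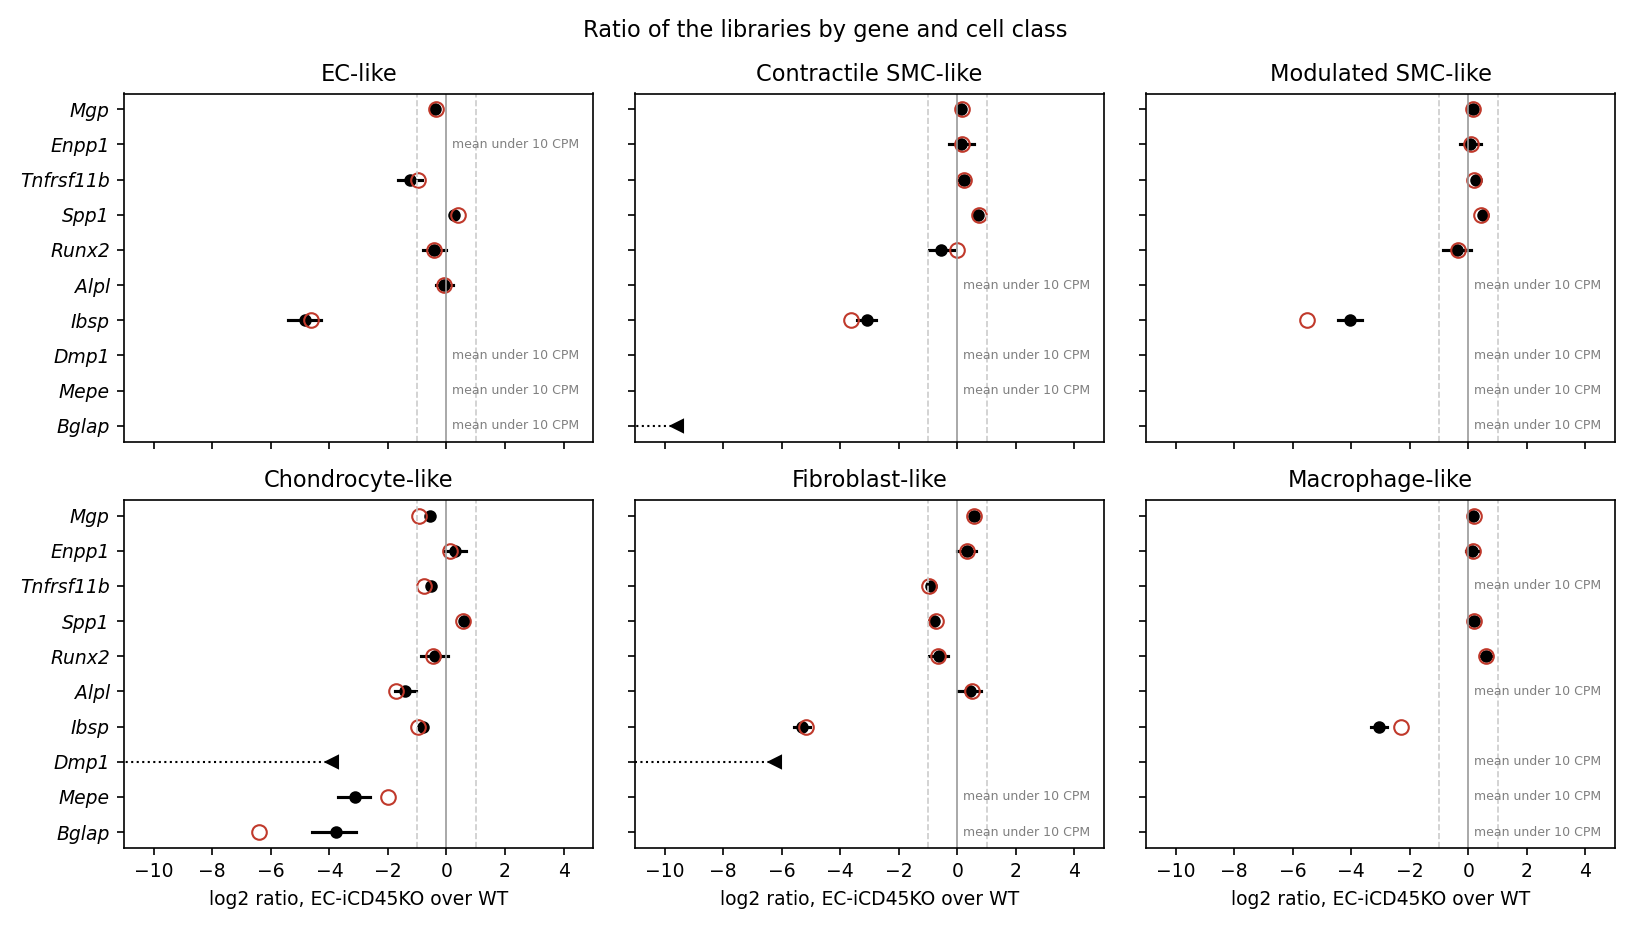
Log2 ratio of EC-iCD45KO over WT for each gene in 6 classes, with exact 95% intervals for counting error as bars; genes with a mean under 10 CPM in the class are not drawn. Dashed lines mark 2-fold, triangles with dotted lines mark genes with no UMI in EC-iCD45KO, whose bound uses a floor of 3 counts, and open red circles give the ratio without the single cell with most UMIs. Ibsp lies between -5.31 and -3.05 in all classes but chondrocyte-like cells, where it is at -0.80.

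Mgp was spread more widely over the classes than Enpp1 and Tnfrsf11b. In modulated SMC-like cells it stood at 42004 CPM in WT and 47283 CPM in EC-iCD45KO. Contractile SMC-like cells had 15699.8 and 17100.1 CPM, chondrocyte-like cells 16512 and 11099.9 CPM, fibroblast-like cells 10611 and 15781 CPM, and EC-like cells 4414 and 3371 CPM. The order of the classes below modulated SMC-like cells differed between libraries, with chondrocyte-like cells next in WT but below contractile SMC-like and fibroblast-like cells in EC-iCD45KO. B-like and T/NK-like cells, which should not express Mgp, had 225 and 260 CPM in WT and 236 and 278 CPM in EC-iCD45KO, and these classes served as background (B-like cells alone for Runx2). A class was counted as above background where its lower bound exceeded their highest upper bound, for Mgp 271 and 309 CPM, and macrophage-like cells (253 and 284 CPM) were not. The log2 ratio was -0.39 (interval -0.41 to -0.37) in EC-like cells and 0.12 (0.11 to 0.14) in contractile SMC-like cells. Within EC-like cells Mgp depended on the cluster: the cluster led by Sfrp1, Edn1 and Gja5 had 13528 and 15353 CPM, the cluster led by Rbp7 and Fabp4 had 2054 and 1278 CPM, and that led by Gpihbp1 had 515 and 446 CPM. The level was thus higher in EC-iCD45KO in the Sfrp1 and Edn1 cluster (0.18) and lower in the Rbp7 and Fabp4 cluster (-0.68). In the Gpihbp1 cluster it was -0.21, but 0.13 without the top cell of each library. With the 3 clusters weighted equally the ratio in EC-like cells was 0.085, opposite in sign. It was -0.093 in EC-like cells without a UMI of C1qa, C1qb, C1qc, Lyz2 or Csf1r, below called cells without macrophage UMIs. In contractile SMC-like cells the sign also depended on the cells: 0.38 in cluster 4 and -0.18 in cluster 23, the more deeply sequenced cluster, and for the class -0.12 with a stricter filter on cells and -0.24 without doublet removal.

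**Figure D3:**
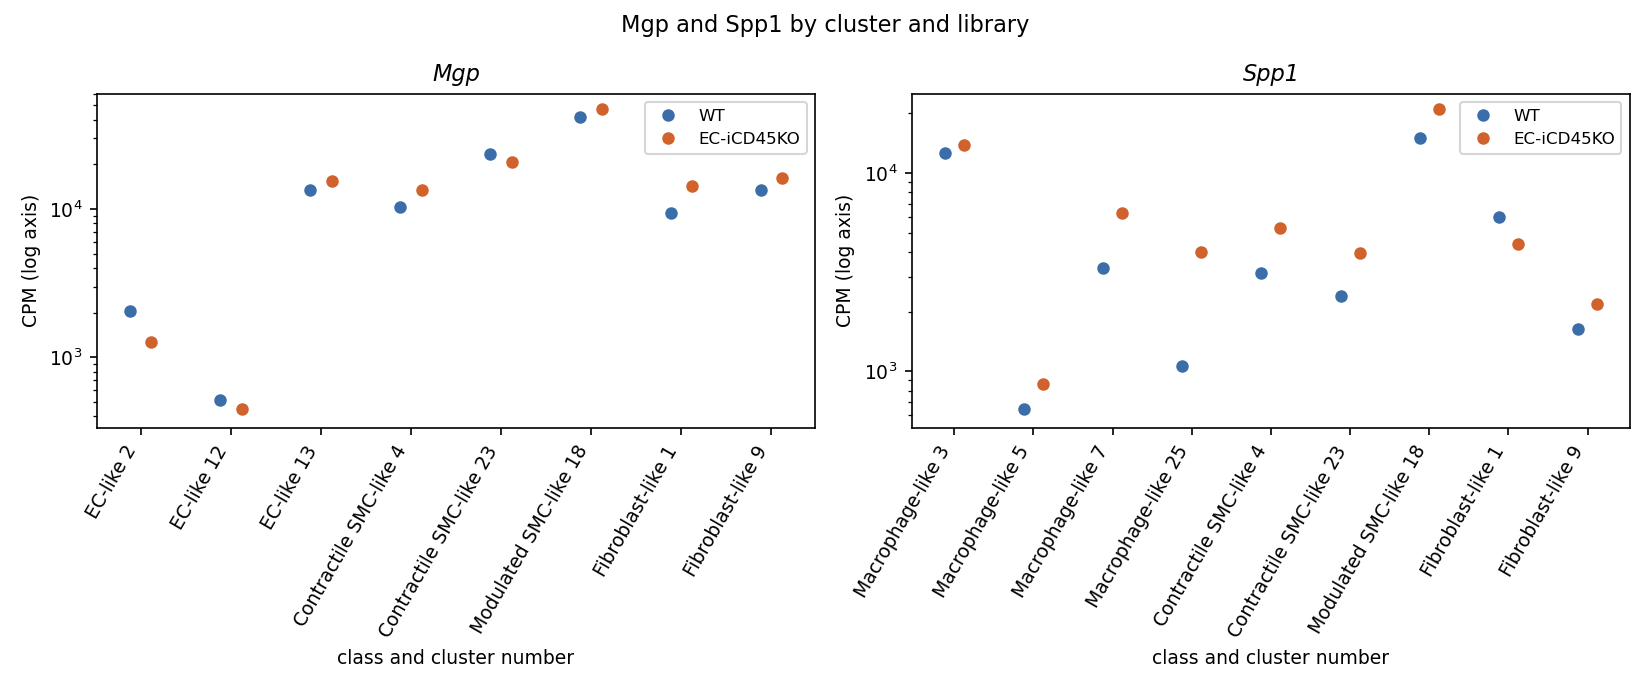
CPM on a log axis in each cluster of both SMC-like classes and the fibroblast-like class, with EC-like clusters added for Mgp and macrophage-like clusters for Spp1; each point is 1 library. EC-like cluster 13, led by Sfrp1 and Edn1, has the highest endothelial Mgp, and macrophage-like cluster 3, led by Gpnmb and Trem2, has the highest macrophage Spp1.

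Enpp1, which makes the inhibitor pyrophosphate, was at or under 114 CPM in all classes. It was highest in chondrocyte-like cells (92.7 and 114 CPM), followed by plasma-like cells (33.1 and 37.2 CPM) and modulated SMC-like cells (32.6 and 34.2 CPM), while B-like cells had 12.90 and 13.04 CPM as background. Its log2 ratio was 0.29 (-0.08 to 0.66) in chondrocyte-like cells and 0.07 (-0.30 to 0.44) in modulated SMC-like cells, so counting error alone covers 0 in both. EC-like cells had 6.35 and 6.54 CPM, under the B-like level.

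Tnfrsf11b, the decoy receptor, was highest in chondrocyte-like cells at 1402 and 977 CPM and in modulated SMC-like cells at 639 and 765 CPM. Contractile SMC-like cells had 105 and 122 CPM and fibroblast-like cells 164 and 87.9 CPM, against 3.72 and 0 CPM in B-like cells. The direction was not shared: lower in chondrocyte-like cells (-0.52), higher in modulated SMC-like cells (0.26) and in contractile SMC-like cells (0.22). In EC-like cells it was 18.0 and 7.63 CPM, and 32 of the 147 WT UMIs were in 1 cell; without the top cell of each library the log2 ratio was -0.96 instead of -1.23. In fibroblast-like cells the ratio was -0.90, but it was 0.82 with a stricter filter on cells, 0.63 with a looser one and 0.62 without doublet removal. In the larger fibroblast-like cluster it was -0.73 and in the other 0.38.

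Spp1 had its highest CPM in chondrocyte-like cells, at 33730 CPM in WT and 51340.2 CPM in EC-iCD45KO, then in modulated SMC-like cells (14925 and 20876 CPM). Macrophage-like cells had 6596 and 7474 CPM, fibroblast-like cells 4688 and 2718 CPM, contractile SMC-like cells 2818 and 4613 CPM, and EC-like cells 1311 and 1565 CPM. B-like cells had 182 and 192 CPM. Thus 12 of 15 classes in WT and 13 of 15 in EC-iCD45KO exceeded the level of B-like and T/NK-like cells. Those cells are among the 15 classes and set the background, so they could not exceed it. The log2 ratio was 0.61 in chondrocyte-like, 0.48 in modulated SMC-like, 0.71 in contractile SMC-like, 0.26 in EC-like, 0.18 in macrophage-like and -0.79 in fibroblast-like cells, each with a counting interval that excludes 0. The ratio in contractile SMC-like cells turned to -0.16 without doublet removal and -0.055 where the libraries were centred before clustering. Of the Spp1 UMIs of a library, macrophage-like cells held 23.8% in WT and 55.0% in EC-iCD45KO, and chondrocyte-like cells 26.4% and 7.29% (3370 and 9460 macrophage-like cells, 705 and 163 chondrocyte-like cells).

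Macrophage-like clusters differed widely in Spp1. The cluster led by Gpnmb and Trem2, genes of foamy macrophages, had 12516 and 13778 CPM, the Chil3 cluster 3321 and 6254 CPM, the interferon cluster 1066 and 4009 CPM, and the Ccl8 and Mrc1 cluster 647 and 863 CPM. The ratio was higher in EC-iCD45KO in each of the 4 clusters (0.14, 0.91, 1.91 and 0.42). After each cell was thinned to 1000 UMIs, 50.6% of macrophage-like cells had an Spp1 UMI in WT and 56.2% in EC-iCD45KO, against 16.9% and 18.6% of B-like cells. Without thinning the shares were 70.1% and 76.1% against 31.6% and 38.2%, where the median depth of macrophage-like cells was 3327 and 2151.5 UMIs and that of B-like cells 2004 and 2552.5 UMIs. Thinning kept 3012 of 3370 WT and 6704 of 9460 EC-iCD45KO macrophage-like cells.

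Macrophage markers were higher in EC-iCD45KO in the structural classes. Spp1 was lower there in fibroblast-like cells and higher in the others, and the part of macrophage RNA in its values was not tested. The summed CPM of 29 macrophage markers was 4835 and 7768 in EC-like, 3643 and 6097 in contractile SMC-like, 6040 and 7517 in fibroblast-like and 1826 and 5750 in chondrocyte-like cells, against 1012 and 1435 in B-like cells. In EC-like cells 23 of the 29 markers in WT and 25 in EC-iCD45KO had at least 5 CPM, and Cd209f was at 0 in EC-iCD45KO. Cells with no UMI of C1qa, C1qb, C1qc, Lyz2 or Csf1r, called cells without macrophage UMIs, may still hold the other markers. In such EC-like cells (738 WT and 359 EC-iCD45KO cells) Spp1 was 265 and 219 CPM, against 1311 and 1565 CPM in the whole class. The log2 ratio there was -0.28, opposite in sign to that of the class. In contractile SMC-like cells without macrophage UMIs (431 and 210 cells) it was 1882 and 2836 CPM, and in modulated SMC-like cells (147 and 27 cells, at median depths of 5835 and 1806 UMIs) 7961 and 13013 CPM. In fibroblast-like cells without macrophage UMIs (680 and 195 cells) it was 3773 and 1055 CPM, and in B-like cells (2817 and 87 cells) 177 and 139 CPM. The 2 fibroblast-like clusters differed in direction: the larger one (led by C7 and Clec3b, 87.5% of the class in WT and 50.1% in EC-iCD45KO) had 5959 and 4383 CPM, and the Saa3 and Sfrp4 cluster had 1629 and 2181 CPM. The class ratio of -0.79 was reversed with a stricter filter (0.49), a looser filter (0.11) and no doublet removal (0.23).

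Runx2 was highest in WT chondrocyte-like cells (89.5 CPM), and in EC-iCD45KO in T/NK-like cells (90.6 CPM), which are known to express it. Chondrocyte-like cells had 68.7 CPM in EC-iCD45KO. Dendritic-like cells had 82.7 and 69.0 CPM, T/NK-like cells 59.9 CPM in WT, and neutrophil-like cells 60.4 and 58.5 CPM. EC-like, contractile SMC-like and modulated SMC-like cells had 10.2 to 24.2 CPM, and B-like cells, the background, 4.55 and 12.0 CPM. Its upper bound rested on 5804 cells in WT and 338 cells in EC-iCD45KO. Of the 15 classes, which include B-like cells themselves, 13 exceeded it in WT and 5 in EC-iCD45KO. In macrophage-like cells it was 18.4 and 27.7 CPM (log2 ratio 0.59, interval 0.38 to 0.80), and in chondrocyte-like cells the ratio was -0.38 with an interval of -0.85 to 0.06.

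Alpl, which removes pyrophosphate, was highest in chondrocyte-like cells at 267 CPM in WT and 101 CPM in EC-iCD45KO, with the log2 ratio at -1.40 (-1.77 to -1.05). EC-like cells had 22.5 and 21.3 CPM and fibroblast-like cells 14.2 and 18.9 CPM, while macrophage-like cells were at 1.30 and 0.731 CPM, under the B-like level in WT (2.20). Within EC-like cells the Sfrp1 and Edn1 cluster had 24.5 and 47.7 CPM (0.96) and the cluster led by Rbp7 and Fabp4 had 21.0 and 12.5 CPM (-0.75), so the class holds clusters of opposite direction.

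Ibsp, an acidic matrix protein of mineralising bone and cartilage, had most of its UMIs in chondrocyte-like cells. It was 21088 CPM in WT and 12136 CPM in EC-iCD45KO in that class, and these cells held 79.7% and 94.2% of all Ibsp UMIs of the library. In WT it was 706 CPM in fibroblast-like, 260.4 CPM in modulated SMC-like, 83.1 CPM in contractile SMC-like, 81.8 CPM in EC-like and 34.5 CPM in macrophage-like cells, against 16.8 CPM in B-like cells. In EC-iCD45KO the same classes had 17.8, 15.9, 9.69, 2.87 and 4.17 CPM, against 1.09 CPM in B-like and 7.62 CPM in T/NK-like cells, and only fibroblast-like and chondrocyte-like cells had a lower bound above the highest bound of these backgrounds (14.5 CPM). Modulated SMC-like cells (15.9 CPM, interval 12.0 to 20.8) and cycling cells (18.7 CPM, 12.7 to 26.5) had intervals that include it. The log2 ratio was -5.31 (-5.59 to -5.04) in fibroblast-like, -4.83 in EC-like, -4.03 in modulated SMC-like, -3.10 in contractile SMC-like and -3.05 in macrophage-like cells, and -0.80 in chondrocyte-like cells. Single cells moved some of these: 38 of the 54 EC-iCD45KO UMIs in modulated SMC-like and 202 of the 451 WT UMIs in macrophage-like cells were in 1 cell, and without the top cells the ratios were -5.49 and -2.29, with -3.63 in contractile SMC-like cells. The ratio in chondrocyte-like cells was -0.028 with a looser filter on cells, -0.045 without doublet removal and -0.15 at a finer clustering, so its size depended on which cells entered the class. The B-like level, 16.8 CPM in WT and 1.09 CPM in EC-iCD45KO, moved with these ratios, and the part of free RNA in them was not tested.

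In several WT classes cells with 10 or more Ibsp UMIs held most of its UMIs: 84.0% in fibroblast-like and 94.99% in modulated SMC-like cells, but 43.4% in EC-like and 22.9% in unnamed cells. In WT 621 cells had 10 or more Ibsp UMIs, 356 of them chondrocyte-like and 97 fibroblast-like; in EC-iCD45KO 41 had, 36 of them chondrocyte-like and none fibroblast-like. Among the 97 fibroblast-like WT cells, 16.5% also had a UMI of the cartilage genes Acan, Col2a1 or Chad, against 2.07% of the other fibroblast-like cells. The share was 36.4% against 2.02% in plasma-like and 6.90% against 1.10% in cycling WT cells, but lower among the 16 such modulated SMC-like cells, at 6.25% against 9.80%. Cells with 10 or more Ibsp UMIs were deeper, with medians of 1330 against 1150 UMIs in fibroblast-like and 2214 against 1301 UMIs in plasma-like cells, and the part of depth in these shares was not tested. After thinning to 1000 UMIs, 79.9% of chondrocyte-like cells had an Ibsp UMI in WT and 58.0% in EC-iCD45KO, against 1.69% and 0% of B-like cells (83.3% and 67.5% without thinning). The 0 of 312 B-like cells has an exact upper bound of 1.18%. Of the thinned WT chondrocyte-like cells, Ibsp was seen in 83.1% of those with an Spp1 UMI (394 of 474) and in 56.7% of those without (38 of 67). In EC-iCD45KO it was 61.4% (78 of 127) and 18.2% (2 of 11).

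Dmp1, Mepe and Bglap were rare and concentrated. In WT chondrocyte-like cells Mepe stood at 381 CPM, Bglap at 309 CPM and Dmp1 at 63.8 CPM, and in EC-iCD45KO at 43.5, 22.4 and 0 CPM. With a floor of 3 counts (4.21 CPM) in place of 0, Dmp1 was 15.2-fold lower there. The exact interval of its log2 ratio reached up to -3.61, a smaller fold. Single cells carried them: 697 of the 1082 Mepe UMIs in WT chondrocyte-like cells were in 1 cell, and without the top cells the log2 ratio of Mepe was -1.99 instead of -3.13. Of the 16 Bglap UMIs in EC-iCD45KO chondrocyte-like cells 14 were in 1 cell, and the ratio of Bglap was -6.41 instead of -3.79 without the top cells. The ratio of Mepe reversed to 0.074 with a looser filter on cells and 0.21 without doublet removal. In contractile SMC-like cells of WT, 1080 of 1083 Bglap UMIs were in 1 cell, which also held 781 Bglap2, 30 Runx2, 420 Col1a1 and 36 Acta2 UMIs among 24611. In fibroblast-like cells of WT, 243 of 266 Dmp1 UMIs were in 1 cell, which also held 2096 Spp1 UMIs. Against a floor of 3 counts in the class, Bglap was 768-fold lower in contractile SMC-like cells of EC-iCD45KO and Dmp1 75.3-fold lower in fibroblast-like cells. The exact intervals of these log2 ratios reached up to -9.28 and -5.93, smaller folds, and both values rest on 1 WT cell. The Bglap cell also held 30 of the 85 Runx2 UMIs of WT contractile SMC-like cells: the log2 ratio of Runx2 there was -0.54, and -0.0046 without the top cell of each library. In the whole libraries Dmp1 had 520 and 7 UMIs, Mepe 1581 and 38, and Bglap 2093 and 19.

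**Figure D4:**
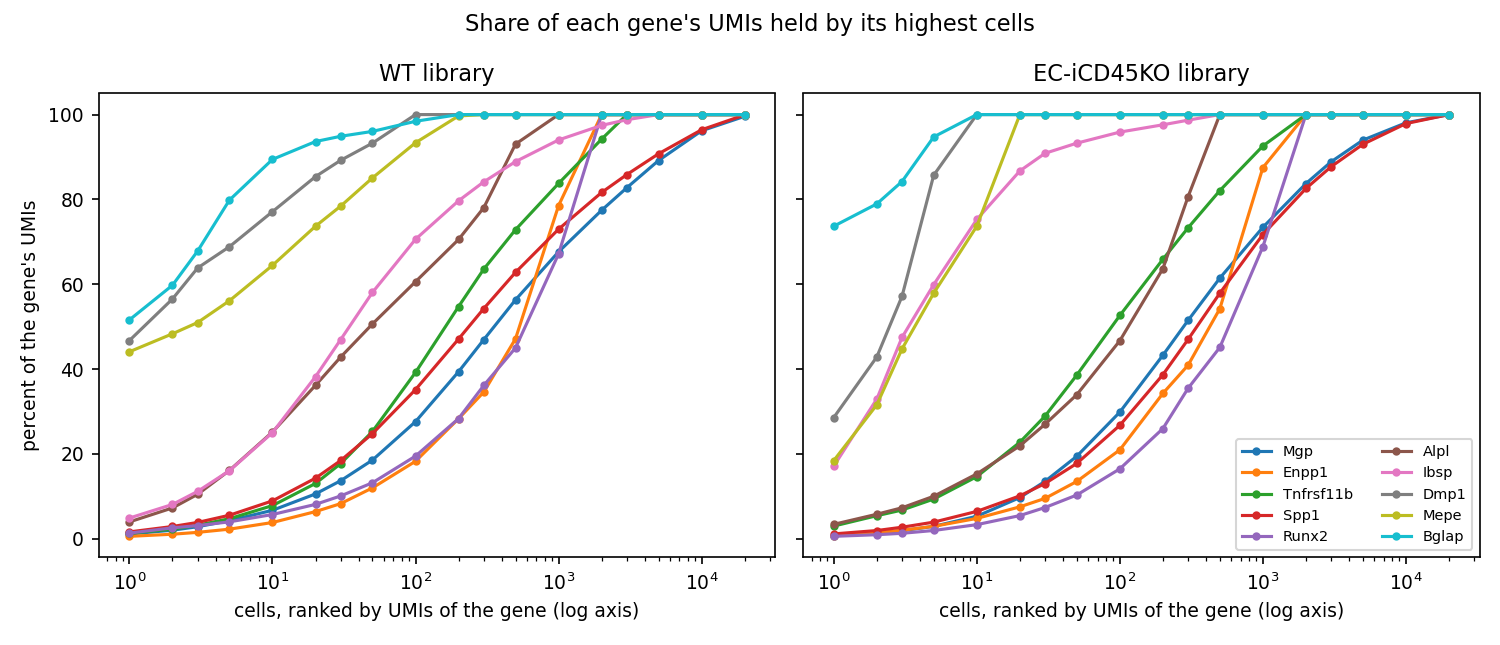
Cumulative percent of a gene's UMIs against cells ranked by UMIs of that gene, per library. Bglap reaches 50% with 1 cell in each library, Ibsp with 35 cells in WT and 4 in EC-iCD45KO, and Mgp with 354 and 279.

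Chondrocyte-like cells did not have the same makeup in the 2 libraries. Clustered more finely, the part led by Col10a1, Col2a1 and Chad held 74.8% (527 of 705) of WT cells and 25.2% (41 of 163) of EC-iCD45KO cells, with median depths of 1621 and 7485 UMIs. The part led by Saa3, Ccl19 and Mmp3 held 13 WT cells and 119 EC-iCD45KO cells, or 73.0% of the latter. Of the rest, 104 WT cells were led by Jchain and Ighm, 35 by Trdc and 26 by Rgs5 and Myl9, genes of plasma cells, T cells and mural cells, so the class in WT was not pure by these genes. In the Col10a1 part Tnfrsf11b was 1556 and 1559 CPM, Runx2 83.1 and 85.3 CPM, Ibsp 23550.3 and 20690.0 CPM, Mgp 16261 and 13429 CPM and Spp1 33675 and 52212 CPM. Enpp1 there was 100.4 and 168 CPM, with the log2 ratio at 0.74 (0.33 to 1.14). The ratio of Ibsp was then -0.19, against -0.80 in the whole class, and that of Tnfrsf11b 0.0022 (-0.12 to 0.13) against -0.52. These values rested partly on single cells: without the top cell of each library Tnfrsf11b was -0.25, Runx2 -0.28 instead of 0.037, Mgp -0.92 instead of -0.28 and Ibsp -0.34. Alpl was still lower (309 and 171 CPM, -0.85), though by less than 2-fold. Mepe (452 and 72.8 CPM), Bglap (351 and 40.2 CPM) and Dmp1 (74.3 and 0 CPM) were lower too. Without the top cell of each library Alpl was -1.13, past 2-fold, Mepe -1.49 instead of -2.64 and Bglap -5.68 instead of -3.13. In the Saa3 part of EC-iCD45KO Spp1 was 50653 CPM, Ibsp 1316 CPM and Tnfrsf11b 228 CPM. Its 13 WT cells had 103395, 12707 and 751 CPM of these genes, so Spp1 was lower in EC-iCD45KO there (-1.03), opposite to the class.

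**Figure D5:**
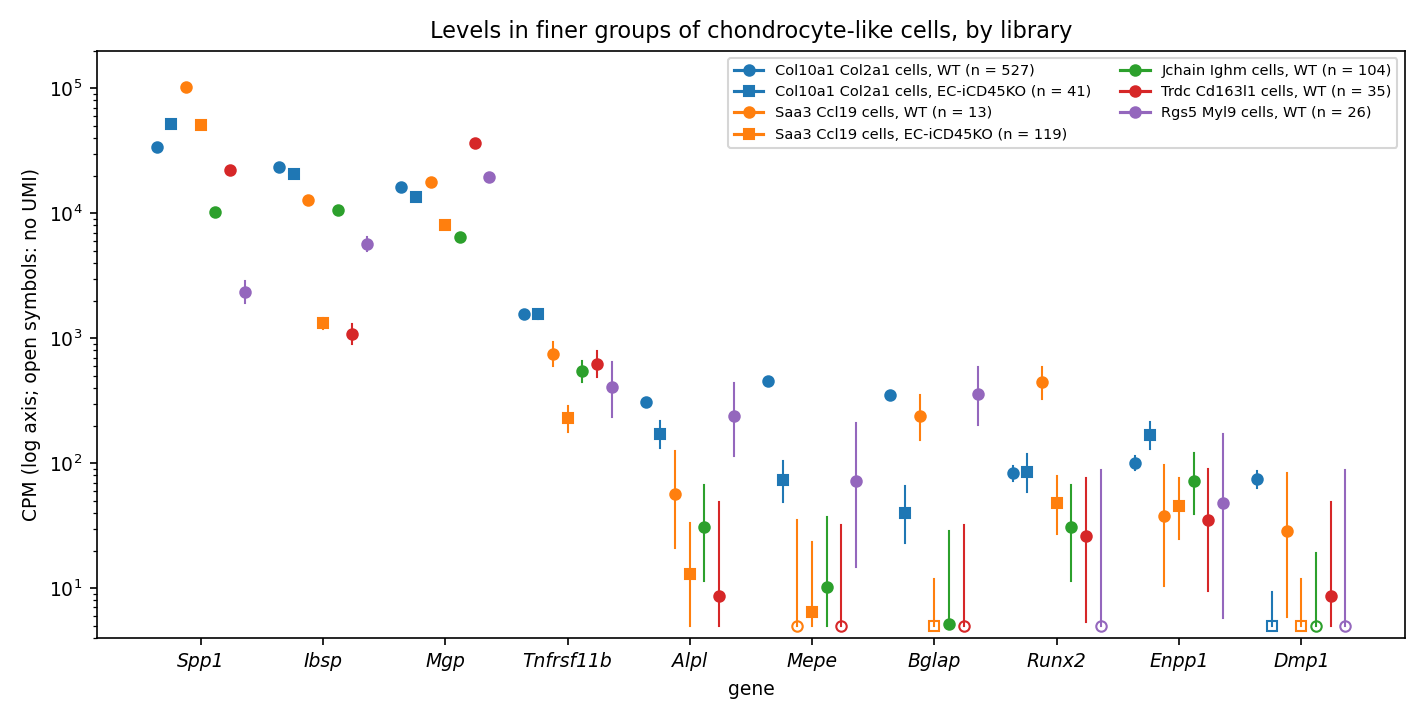
CPM of the 10 genes on a log axis in 5 finer parts of the chondrocyte-like class (colours), circles for WT and squares for EC-iCD45KO, with exact 95% counting intervals as bars, open symbols for no UMI and values under 5 CPM drawn at 5. In the Col10a1 part, Tnfrsf11b and Runx2 nearly coincide between libraries, and Mepe, Bglap and Dmp1 lie lower in EC-iCD45KO.

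Other genes of these pathways were counted in 7 lists. Among osteoblast and osteocyte genes, Bglap2, the close copy of Bglap, was 295 and 70.1 CPM in chondrocyte-like cells. In fibroblast-like cells 2 of 8 bone matrix genes were higher, Col1a2 (1476 and 3412 CPM) and Col1a1 (897 and 2108 CPM), and Tnc was lower, against 2.19% higher and 5.03% lower of all genes. Of the osteoclast list, 1 gene was 2-fold higher and 1 lower among 5 measured in chondrocyte-like cells, and likewise among 8 in fibroblast-like cells, against 5.87% higher and 4.75% lower of all genes in the former and 2.19% and 5.03% in the latter. The higher gene in both was Tnfsf11, which encodes RANKL, the ligand that Tnfrsf11b binds, at 9.16 and 53.3 CPM in chondrocyte-like and 15.0 and 31.8 CPM in fibroblast-like cells. The lower genes were Acp5 in chondrocyte-like cells (35.6 and 16.8 CPM) and Dcstamp in fibroblast-like cells (20.0 and 1.27 CPM). Tnfsf11 in chondrocyte-like and Dcstamp in fibroblast-like cells reached 10 CPM in 1 library alone, so these calls too give no support of their own. Of the phosphate and pyrophosphate list, 1 of 8 measured genes was higher in chondrocyte-like cells and none lower. It was Nt5e (43.0 and 116 CPM), which makes adenosine and phosphate from AMP. Of the Gla list, 1 of 4 was higher there, Gas6 (121 and 328 CPM), a Gla protein. In fibroblast-like cells 2 of 5 were higher, Gas6 (230 and 518 CPM) and Ahsg, and none was lower in either class. Of all genes, 5.87% were higher in chondrocyte-like and 2.19% in fibroblast-like cells. In macrophage-like cells 2 of 7 osteoclast-list genes were lower, Ctsk (126 and 36.6 CPM) and Dcstamp (105 and 6.98 CPM), and none higher, against 1.31% lower and 0.561% higher of all genes. Dcstamp entered this count through its WT level, so its call gives no support of its own. None of the 7 osteopontin receptors measured in macrophage-like cells passed 2-fold. Of the receptors measured, 1 of 8 was lower in EC-like, contractile SMC-like and modulated SMC-like cells and 1 of 7 in fibroblast-like cells. It was Itga4 in each, at 64.2 and 21.1 CPM in EC-like and 89.3 and 23.8 CPM in fibroblast-like cells. In chondrocyte-like cells 1 of 8 was lower, Itgb3, and none was higher in these classes. Of all genes, 3.02%, 3.69%, 1.95%, 5.03% and 4.75% were lower in these classes, in the order named. A receptor under 10 CPM in EC-iCD45KO entered through its WT level, so its call gives no support of its own. Lymphocytes also express Itga4, they were fewer in EC-iCD45KO, and their part in this was not tested.

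Smaller classes carried some of the larger differences of Spp1, Mgp and Ibsp. In lymphatic EC-like cells Spp1 was 771 and 3896 CPM, but 1227 of the 2122 UMIs of EC-iCD45KO were in 1 cell, and the log2 ratio was 1.24 instead of 2.34 without the top cell of each library. Mgp there was 2778 and 786 CPM (-1.82). Plasma-like cells had 1446 and 6809 CPM of Spp1, dendritic-like cells 252 and 738 CPM, and neutrophil-like cells 1689.8 and 3135 CPM. Plasma-like cells differed in makeup, with 94.9% of the 1666 WT cells but 53.1% of the 113 EC-iCD45KO cells in cluster 10, and fibroblast markers summed to 548 and 3005 CPM in them. Summed macrophage markers were also higher in EC-iCD45KO in these 4 classes, at 2963 and 8710 CPM in lymphatic EC-like, 3829 and 8044 CPM in plasma-like, 3359 and 6967 CPM in dendritic-like and 10852 and 17455 CPM in neutrophil-like cells, and their part in the Spp1 values was not tested. The marker sum and Spp1 went opposite ways in Schwann-like cells, with 4839 and 16242 CPM of markers and 4725 and 2798 CPM of Spp1. They did so too in erythroid-like cells, with 7519 and 21304 CPM of markers and 5632 and 2988 CPM of Spp1. Mgp in Schwann-like cells was 6738 and 2011 CPM. Ibsp was also lower in EC-iCD45KO in erythroid-like (1079.98 and 3.66 CPM), cycling (317 and 18.7 CPM) and plasma-like cells (269 and 0 CPM). In erythroid-like and plasma-like cells it reached 10 CPM in WT alone, so these values give no support of their own. Of the 14 erythroid-like WT cells with 10 or more Ibsp UMIs, 92.9% had a UMI of Acan, Col2a1 or Chad, against 8.54% of the other 328 cells, at median depths of 2342 and 903 UMIs.

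Patterns most like each gene were sought as the Pearson correlation of log2(CPM + 1) over 30 points (15 classes in 2 libraries), which share libraries and depth and are given as a description. Mgp was most like Bgn (0.98), Mxra8 and Igfbp7. Spp1 was most like S100a1 (0.90), Fn1 and Fam20c. Tnfrsf11b was most like Lum (0.95), Ildr2 and Col6a1. Ibsp was most like Chad (0.86), Slc8a3 and Acan, Mepe like Chad, Acan and Pdzrn4, and Alpl like Pth1r (0.88), Omd and Cytl1. Enpp1 was most like Ecrg4 (0.81), Cox4i2 and Lbhd2, and Runx2 like Emb (0.74), Prdx6 and Leprotl1. Dmp1 was most like Col10a1 (0.65), Col11a1 and Otor, and Bglap like Bglap2 (0.98), Pdzrn4 and Mia, but both rest on few cells. Several of the genes found, such as Chad, Acan, Cytl1, Col11a1, Fn1 and Lum, were also markers used to name classes. Likeness to them was partly given in advance. With 10 added in place of 1, the same 3 genes came out for Mgp, Spp1, Dmp1 and Bglap, in another order for all but Spp1, while other genes entered for the rest, such as Frzb for Tnfrsf11b, Omd for Ibsp and Scrg1 for Mepe.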

How the data were processed

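Each library was deposited as a matrix of UMI counts per gene and cell barcode. Per the submitters' processing notes the authors used Cell Ranger 7.1.0 and mm10; the counting of intronic reads and the cell calling are not given in the sources used here. Gene positions come from GENCODE M21 on GRCm38. Python 3.11.15 with scanpy 1.11.5 and leidenalg 0.10.2 was used.

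Barcodes with under 300 genes or over 10% mitochondrial UMIs were dropped. Doublets were scored with Scrublet; its own threshold marked 3 of 39716 scored WT cells (0.00755%) and 0 of 29991 scored EC-iCD45KO cells, so it had not worked, and the top 10% of scores were removed in each library (3950 and 2896 cells) (this share was set with the data in view). Both libraries were clustered together on 2000 variable genes and 30 components at Leiden resolution 1, with the 10 genes, the pathway lists and Ptprc left out. The members and lists were chosen with earlier results of these data known. A cluster was named if the mean log2 excess of its markers over the median cluster was at least 1, ahead of any other class by 0.75, and if 3 or more markers were detected, it held at least 50 cells and no other class had more markers among its top 10 genes. Compared classes had at least 50 cells in each library. These thresholds were set with the data in view, and 12 of the 39 clusters stayed unnamed.

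UMIs were summed per class and library and scaled to CPM. The highest 95% bound in B-like or T/NK-like cells was the background, and a class was above it where its own lower bound was higher (B-like alone for Runx2, which T/NK-like cells express). Counts have exact Poisson, shares Clopper-Pearson and log2 ratios exact conditional binomial intervals. No test between groups was possible. The intervals were run on simulated counts, drawn as Poisson from the summed UMIs of a class, which is the model the intervals assume. They covered 95.2% of 8864 genes in contractile SMC-like, 95.5% of 7788 in macrophage-like and 96.5% of 8637 in chondrocyte-like cells. Coverage near 95% was thus given in advance. The simulation did not gather a gene's UMIs in single cells, as seen in the data, so it cannot show coverage there. In the simulated chondrocyte-like cells, 159 unchanged genes passed 2-fold through counting noise.

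All 10 members were counted in every class, though not every value is given above. For each member, the 3 most alike genes with at least 50 CPM in a class were named. Genes of a list were named only where past 2-fold, up to 4 per list. Alternatives were other filters, no doublet removal, resolution 2, libraries centred before clustering, TMM scaling (edgeR 4.0.16 in R 4.3.3), CPM without mitochondrial, ribosomal and haemoglobin genes, the mean over single cells, subtraction of the B-like level, only cells without macrophage UMIs, and, chosen after seeing the data, without the cell with most UMIs and with clusters weighted equally. The count over the osteoblast and osteocyte list is not reported here.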

Additional observations from a re-analysis of the deposited data

Results flagged for a closer look

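Cells that were given no class carried Spp1 and Mgp above the level of B-like and T/NK-like cells. In EC-iCD45KO, unnamed cells had 3747.69 CPM of Spp1 and 5189.03 CPM of Mgp, against 2783.09 and 2443.99 CPM in unnamed cells of WT. The pooled cells sit in different clusters, with 54.7% of WT in cluster 6 and 42.4% of EC-iCD45KO in cluster 22. Within a cluster Mgp was 492 and 500 CPM (WT and EC-iCD45KO) in cluster 6, 9138 and 7548 CPM in cluster 22 and 7311 and 7182 CPM in cluster 27. In 2 smaller clusters it differed more, with 531 and 4922 CPM in cluster 31 (63 and 77 cells) and 3128 and 1190.5 CPM in cluster 34 (58 and 26 cells). Spp1 was 2769 and 3139 CPM in cluster 6, 2893 and 2869 CPM in cluster 22, 1426 and 1401 CPM in cluster 27, 185 and 94.9 CPM in cluster 31, and 834 and 1013 CPM in cluster 34. Of the 13916 Spp1 UMIs in unnamed cells of EC-iCD45KO, 6378 were in the 26 cells of cluster 37, which has no WT cell, so the higher pooled level rests on them. These cells enter no comparison of classes.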

How the results depend on the processing

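The lower Ibsp in EC-iCD45KO had the same direction under each alternative that gave a value in EC-like, contractile SMC-like, modulated SMC-like, fibroblast-like, chondrocyte-like and macrophage-like cells. In chondrocyte-like cells the log2 ratio ranged from -1.40 to -0.028. This leaves out the cells without macrophage UMIs, of which EC-iCD45KO had 2 in that class, too few for a ratio: Ibsp was 20618 CPM in the 152 WT cells and 32956 CPM, higher, in those 2. Mgp in EC-like cells was -0.39 as reported. It was -0.33 with stricter and -0.34 with looser filters, -0.25 without doublet removal, -0.34 at resolution 2, -0.36 centred, -0.35 with TMM, -0.12 as a single-cell mean, -0.42 after subtracting the B-like level, -0.093 in cells without macrophage UMIs, -0.35 without the top cell, and 0.085 with clusters weighted equally. Mgp in contractile SMC-like cells was 0.12 as reported. It reversed to -0.12 (stricter filter), -0.077 (looser), -0.24 (no doublet removal) and -0.22 (centred). It was 0.22 at resolution 2, 0.21 with TMM, 0.091 without mitochondrial, ribosomal and haemoglobin genes, 0.26 as a single-cell mean, 0.20 without macrophage UMIs, 0.16 without the top cell and 0.018 with clusters weighted equally. Spp1 in fibroblast-like cells was -0.79 as reported and reversed to 0.49 (stricter), 0.11 (looser) and 0.23 (no doublet removal). It was -0.66 at resolution 2, -0.49 centred, -0.73 with TMM and without the top cell, -0.83 without mitochondrial, ribosomal and haemoglobin genes, -0.26 as a single-cell mean, -0.84 after subtracting the B-like level, -1.84 without macrophage UMIs and -0.21 with clusters weighted equally. Spp1 in macrophage-like cells was 0.18 as reported, 0.20 with the stricter filter, 0.22 without doublet removal, 0.19 at resolution 2, 0.20 centred, 0.24 with TMM, 0.31 as a single-cell mean, 0.20 without the top cell and 0.50 with clusters weighted equally. Over all 6 classes, 12 pairs of gene and class were 2-fold lower and 0 higher. There were 22 lower with no minimum and 0.5 CPM added, and 3 higher at 1.5-fold, 2 with the stricter filter, 1 with the looser and 1 as a single-cell mean. Mepe in chondrocyte-like cells reversed to 0.074 with the looser filter and 0.21 without doublet removal. The cause of these changes was not tested. The modulated SMC-like class was not obtained without doublet removal. Of 385 values of the other 35 ratios, 345 kept the sign and 40 did not, in 17 ratios. No paired analysis was possible because a group is 1 library here, with no other to pair.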

Other observations

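One unnamed cluster held 2050 WT cells and no EC-iCD45KO cell, and 61.2% of its cells had an Ibsp UMI, with at most 67 in a cell. Its levels were 981 CPM of Ibsp, 3148 CPM of Spp1 and 5758 CPM of Mgp. Its leading genes were Glycam1, Ighg3 and Ighm. Another unnamed cluster held 26 EC-iCD45KO cells and no WT cell, with 85717 CPM of Spp1 and Npy, Mmp12 and Ctsk among its leading genes.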
